A study of Mus musculus with 12 samples.

Results

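The genes described here are 52 mouse genes of the cell cycle and DNA replication, chosen by name: cyclins and their kinases, Rb and E2F factors, the replication machinery, enzymes of nucleotide supply and genes of mitosis. A row with the matching Entrez identifier was present for 50 of them among 13124 genes, and Ccnb2 and Plk1 were not analysed here. RNA came from whole, saline-perfused kidneys of male C57BL/6 mice, 3 kidneys in each of 4 groups, in a study of unilateral warm renal ischaemia-reperfusion injury (IRI). Kidneys 1 to 3 were sham-operated and otherwise untreated. Kidneys 4 to 6 had IRI after an isotype control antibody, kidneys 7 to 9 after an antibody to the G-CSF receptor (anti-G-CSFR, treatment VR81) and kidneys 10 to 12 after an antibody to complement C5 (anti-C5, treatment BB5.1). Antibodies were given 24 h before IRI and kidneys were taken 24 h after surgery. The labels give no age. Sham mice received no antibody, so the injury and the injection cannot be told apart in comparisons with sham. The comparisons ask how the injury changed these genes at 24 h and whether either antibody altered that change.

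A cell leaves G1 when D-type cyclins with Cdk4 or Cdk6, then E-type cyclins with Cdk2, phosphorylate the retinoblastoma protein and release E2F factors, which switch on genes of DNA synthesis. MCM proteins are loaded on origins as the replicative helicase, clamp loader, primase and polymerases copy the DNA, and Ccna2, Ccnb1 and Cdk1 then drive the cell through G2 into mitosis. Most tubule cells of an adult kidney are quiescent, and some re-enter the cycle after ischaemic damage.

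Promoter sequences are shown for 5 members that stand for the patterns described afterwards: E2f3, which rose in the isotype kidneys, Mcm5 and Mcm6, whose highest level was in 1 anti-C5 kidney, and Cdk1 and Top2a of mitosis, which edgeR with TMM factors and all 12 libraries did not call in any comparison. Each line holds the 160 bases before the RefSeq start site, on the strand of the gene (build GRCm38.p6). Capitals mark E2F words (TTTCCCGC or TTTGGCGC) and the NF-Y word CCAAT in the first 3, and CHR words (TTTGAA or TTTAAA) with CCAAT in the others, on either strand, so that CCAAT can read ATTGG. The 5 windows lie at chr13:29986064-29986223 (minus strand), chr8:75109349-75109508 (plus), chr1:128359706-128359865 (minus), chr10:69352913-69353072 (minus) and chr11:99024190-99024349 (minus).
E2f3: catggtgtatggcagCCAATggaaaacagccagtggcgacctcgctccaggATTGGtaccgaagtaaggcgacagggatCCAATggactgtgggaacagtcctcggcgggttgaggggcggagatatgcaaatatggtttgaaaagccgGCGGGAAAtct
Mcm5: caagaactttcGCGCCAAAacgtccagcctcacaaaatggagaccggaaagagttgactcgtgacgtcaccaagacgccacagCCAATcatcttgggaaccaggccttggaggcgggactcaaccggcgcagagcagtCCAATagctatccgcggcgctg
Mcm6: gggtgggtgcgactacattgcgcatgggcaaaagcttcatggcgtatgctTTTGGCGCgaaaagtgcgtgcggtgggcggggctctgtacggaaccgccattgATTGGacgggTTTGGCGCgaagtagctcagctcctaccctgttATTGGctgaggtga
Cdk1: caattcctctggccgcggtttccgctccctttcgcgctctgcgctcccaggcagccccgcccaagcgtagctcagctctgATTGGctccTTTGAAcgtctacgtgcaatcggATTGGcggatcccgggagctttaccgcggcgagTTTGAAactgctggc
Top2a: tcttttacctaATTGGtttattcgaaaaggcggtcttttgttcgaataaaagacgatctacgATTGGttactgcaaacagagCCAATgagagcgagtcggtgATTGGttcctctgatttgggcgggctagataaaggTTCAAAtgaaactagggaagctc
No capitalised words overlapped (0 pairs in each window), and 26 bases of the Cdk1 window lie in an annotated exon of Cdk1. A RefSeq window of 250 bases before to 50 after a start site was found for 40 of the 50 members, 48 windows in all. An E2F word was present in 8 of the 48 windows, in Mcm3, Mcm5, Mcm6, Mcm7, Rfc3, Pold1, Cdk2 and E2f3, against 1.565% of 32851 mouse windows. These were 6 of the 24 S phase genes with a window and 0 of the 8 M phase genes. A CHR word was present in 18 of the 48 windows, against 27.6% of all windows, and in 8 of 8 M phase genes. CCAAT was present in 28 of the 48 windows, against 37.4% of all. A match describes the letters of the window and shows no binding.

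Libraries held 13200930 to 16324215 counts, and expression is given as CPM with library sizes adjusted by TMM factors. The lowest members, such as Ccnb1 with 7 to 76 counts, are the least precise. Genes of the kidney tubule were abundant in every library, and the summed proximal tubule markers (7 of 7 measured) lay at 8122 CPM or more except in the isotype kidneys (1544 to 2106) and kidney 11 of the anti-C5 group (6497). The summed tubule injury markers (5 of 5) were 29.4 to 48.3 CPM in sham, 7195 to 7352 in the isotype group, 44.0, 71.8 and 537.1 in kidneys 7, 8 and 9, and 64.8, 1926 and 39.0 in kidneys 10, 11 and 12. Kidneys 9 and 11 thus stood apart from the other kidneys of their groups, and results that rest on them are also given without them. Of 11 markers of T, B and NK cells, 0 had a row. In whole kidney, fewer cells of a type and less RNA per cell cannot be told apart. Exons of 15 members overlap those of a gene on the opposite strand, and no source used here gives the strand setting of the counting.

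After IRI with the isotype antibody the genes moved in both directions, also within a role. The kinases Cdk4, Cdk6 and Cdk2 and the factors E2f3 and E2f4 rose, while the cyclins Ccnd1 and Ccnd3, Rb1, E2f1 and the nucleotide enzymes Tyms and Tk1 fell. Of the 28 S phase genes 3 rose and 6 fell, and of 9 measured M phase genes 0 passed the test. Altogether 8 of 50 members rose and 10 fell (edgeR, adjusted p below 0.05 over all genes). Among all 13124 genes 32.1% were called higher and 30.7% lower, so both shares of the members were below the background. The median log2 change was -0.01 over the members and 0.03 over all genes. With library totals alone as the scaling, the median of all genes moved to 0.23, the calls over all genes to 5586 higher and 3095 lower, and the members' calls to 12 higher and 6 lower.

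**Figure D1:**
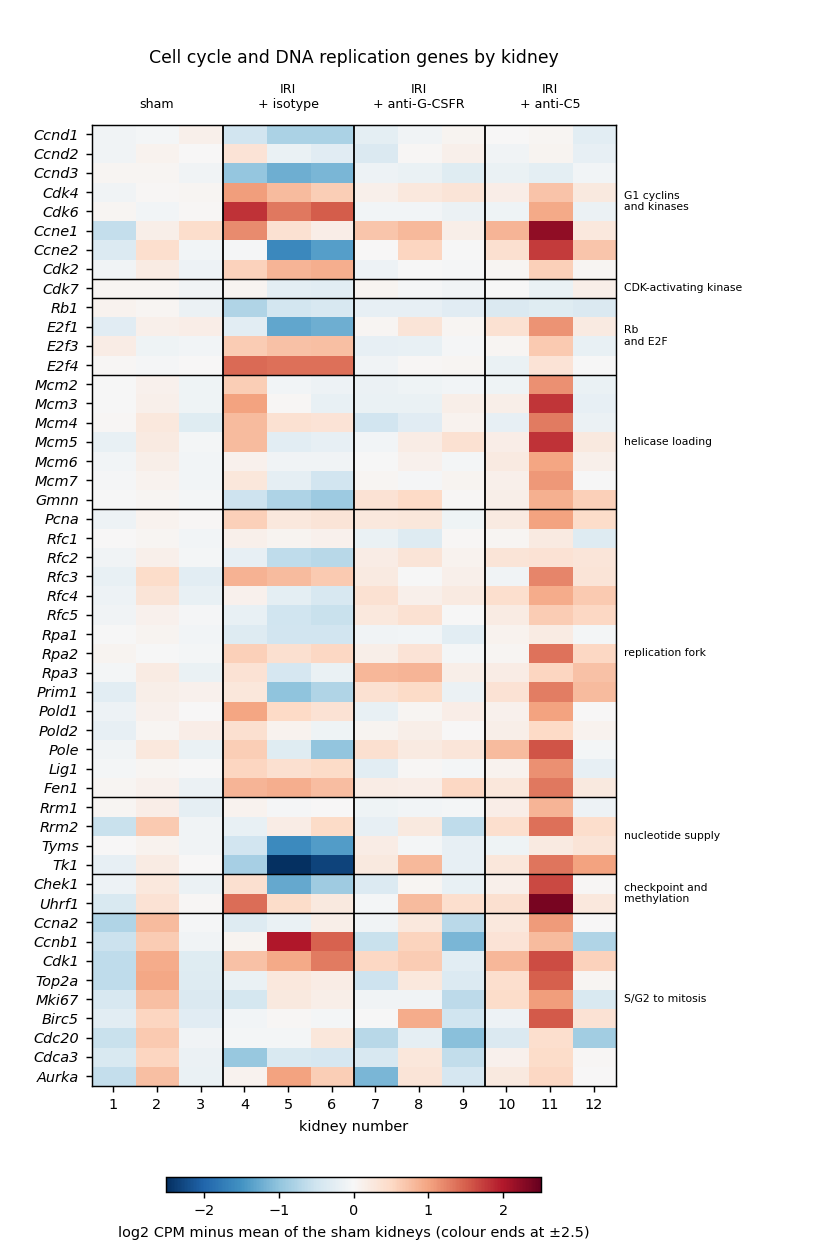
Level of each of the 50 measured members (rows, grouped by role) in each of the 12 kidneys (columns), as log2 CPM minus the mean of the 3 sham kidneys; red is higher and blue lower. Cdk6 and E2f4 are red and Tyms and Tk1 blue in the isotype kidneys, and kidney 11 is red across most rows of DNA replication.

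Among the G1 cyclins, the D-type cyclins Ccnd1 and Ccnd3 fell after IRI with the isotype antibody and Ccnd2 did not pass the test. Ccnd3 (Entrez 12445, chr17:47505051-47599691, GRCm38) measured 117, 117 and 107 CPM in sham, 58.2, 48.8 and 51.4 in the isotype group, 104, 101 and 92.1 with anti-G-CSFR and 101, 96.1 and 108 with anti-C5. All isotype kidneys lay below all 9 others, at 52.8 ± 4.8 (SD, n = 3) against 114 ± 5.7 in sham. The log2 change was -1.10 (SE 0.09, edgeR adjusted p = 5.34e-06). With anti-G-CSFR it was 0.90 higher than with isotype (SE 0.09, adjusted p = 1.74e-05), and with anti-C5 0.95 higher (SE 0.09, adjusted p = 1.91e-05).

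Ccnd1 (Entrez 12443, chr7:144929931-144939925) measured 218, 225 and 253 CPM in sham, 166, 133 and 134 in the isotype group, 196, 219 and 243 with anti-G-CSFR and 233, 239 and 192 with anti-C5. Again the 3 isotype kidneys were the lowest of the 12. The log2 change against sham was -0.68 (SE 0.13, edgeR adjusted p = 0.00078), and the antibody groups were higher than isotype by 0.60 (adjusted p = 0.00179) and 0.61 (adjusted p = 0.00178). Ccnd2 measured 22.2 to 24.9 CPM in sham, 19.4 to 29.8 in the isotype group, 18.3 to 25.6 with anti-G-CSFR and 20.4 to 24.6 with anti-C5. Its groups overlapped in each comparison, and the log2 change against sham was -0.01 (SE 0.17, edgeR adjusted p = 0.966).

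The E-type cyclins, partners of Cdk2, varied more between kidneys. Ccne1 measured 1.27, 2.14 and 2.60 CPM in sham, 4.33, 2.52 and 2.17 in the isotype group, 3.10, 3.36 and 2.12 with anti-G-CSFR and 3.46, 8.97 and 2.32 with anti-C5. It passed no test, with a log2 change of 0.59 against sham (SE 0.48, edgeR adjusted p = 0.303). Ccne2 measured 4.56, 7.72 and 5.55 CPM in sham, 5.67, 1.90 and 2.23 in the isotype group, 5.81, 8.43 and 5.75 with anti-G-CSFR and 7.62, 19.6 and 9.43 with anti-C5. Kidney 4 of the isotype group lay within the sham range and kidneys 5 and 6 lay below it. The change of Ccne2 against sham was -0.85 (edgeR adjusted p = 0.113), and -1.52 (adjusted p = 0.00968) without kidney 4. It rose with anti-C5 against isotype, by 1.89 (SE 0.44, adjusted p = 0.00307), and by 1.37 (adjusted p = 0.011) without kidney 11.

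The partner kinases of these cyclins moved the other way from Ccnd1 and Ccnd3. Cdk6 (Entrez 12571, chr5:3341485-3531008) measured 32.4, 29.9 and 32.3 CPM in sham, 111, 78.1 and 89.6 in the isotype group, 30.1, 29.9 and 28.6 with anti-G-CSFR and 29.1, 61.0 and 28.3 with anti-C5. Every isotype kidney was above every other kidney, and kidney 11 lay between the isotype range and the rest. The log2 change was 1.56 against sham (SE 0.25, edgeR adjusted p = 0.000224). Against isotype it was -1.65 with anti-G-CSFR (adjusted p = 0.000167) and -1.23 with anti-C5 (adjusted p = 0.00119), or -1.69 without kidney 11.

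Cdk4 measured 62.1, 67.3 and 68.4 CPM in sham, 136, 114 and 101 in the isotype group, 71.5, 79.1 and 82.4 with anti-G-CSFR and 74.3, 109 and 78.4 with anti-C5. The isotype kidneys were above sham and anti-G-CSFR, and kidney 11 alone reached into their range. Cdk4 rose by 0.83 against sham (SE 0.15, edgeR adjusted p = 0.000484) and differed from isotype by -0.59 with anti-G-CSFR (adjusted p = 0.00405) and -0.43 with anti-C5 (adjusted p = 0.0243). Cdk2 (chr10:128697939-128705031), the kinase of the E-type cyclins, measured 13.9, 16.9 and 13.5 CPM in sham, 22, 26.5 and 27.4 in the isotype group, 13.5, 14.5 and 14.3 with anti-G-CSFR and 15.1, 22.2 and 15.2 with anti-C5. As for Cdk4, the isotype kidneys were above all sham and anti-G-CSFR kidneys, and kidney 11 was the one anti-C5 kidney inside the isotype range. Its log2 changes were 0.78 (edgeR adjusted p = 0.00117), -0.84 (adjusted p = 0.000738) and -0.53 (adjusted p = 0.0119) in the same 3 comparisons. Cdk7, which activates these kinases, measured 37.6 to 49.7 CPM over all kidneys and was not called in any comparison, except between isotype and sham without kidney 4 (log2 change -0.25, edgeR adjusted p = 0.0482).

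**Figure D2:**
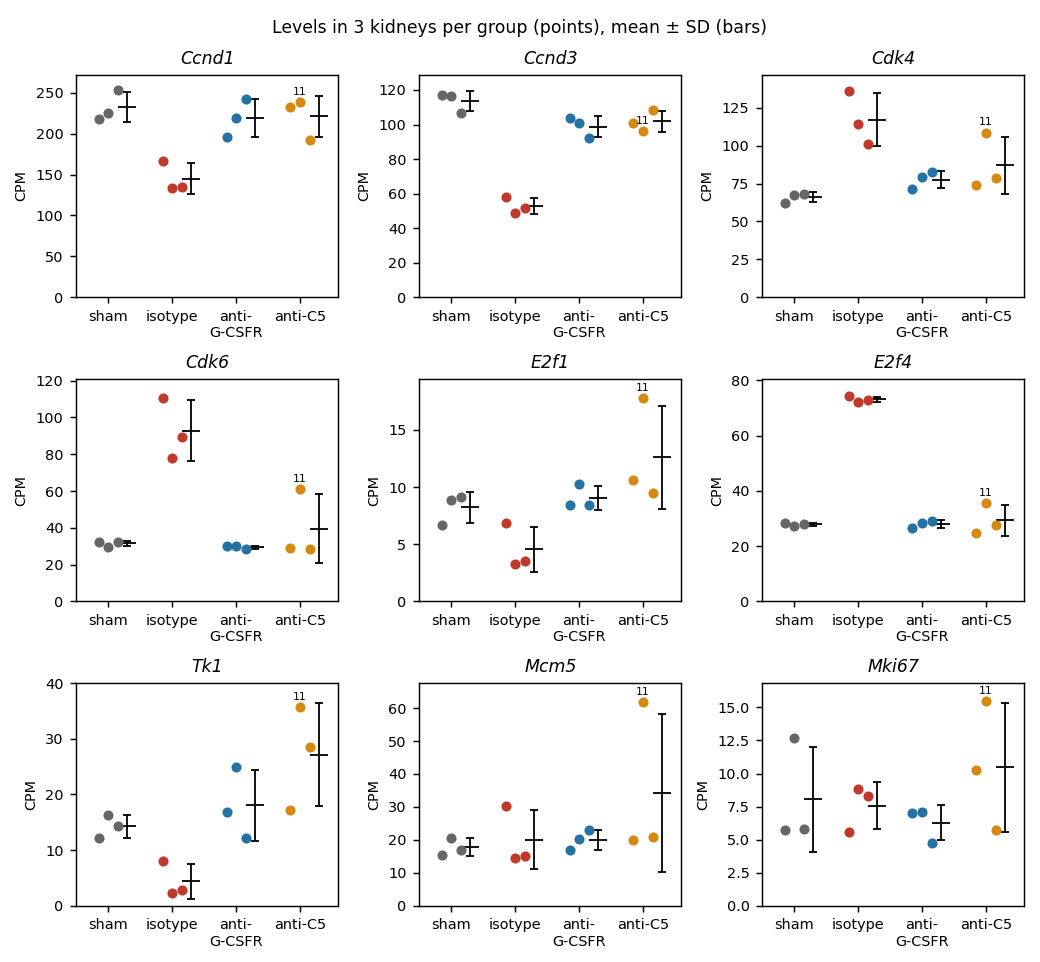
CPM of 9 members in the 3 kidneys of each group (points), with mean ± SD (bars) and kidney 11 numbered; each vertical axis starts at 0. Ccnd1 and Ccnd3 are lowest and Cdk6 and E2f4 highest in the isotype group, and kidney 11 is the top point for Mcm5 at 61.8 CPM.

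Within the E2F family, E2f1 and E2f3, which activate S phase genes, went in opposite directions. E2f4, the main repressor E2F of resting cells, measured 28.4, 27.3 and 28.1 CPM in sham and 74.2, 72.2 and 72.9 in the isotype group. It measured 26.4, 28.3 and 29.1 with anti-G-CSFR and 24.8, 35.6 and 27.8 with anti-C5. No isotype kidney overlapped any other kidney, and the log2 changes were 1.39 against sham (SE 0.12, edgeR adjusted p = 5e-06), -1.39 with anti-G-CSFR against isotype (adjusted p = 6.59e-06) and -1.31 with anti-C5 against isotype (adjusted p = 1.1e-05). E2f3, whose promoter is printed above, measured 15.8, 12.8 and 13.3 CPM in sham, 21.7, 23.1 and 23.4 in the isotype group, 12.1, 12.3 and 13.7 with anti-G-CSFR and 14.4, 21.99 and 12.2 with anti-C5. It rose by 0.70 against sham (SE 0.18, edgeR adjusted p = 0.00482) and was lower than isotype with anti-G-CSFR, by -0.84 (adjusted p = 0.00171). With anti-C5 it was -0.49 (adjusted p = 0.0327), and -0.77 (adjusted p = 0.000358) without kidney 11, the anti-C5 kidney inside the isotype range.

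E2f1 measured 6.70, 8.89 and 9.18 CPM in sham, 6.83, 3.32 and 3.50 in the isotype group, 8.46, 10.3 and 8.47 with anti-G-CSFR and 10.6, 17.8 and 9.51 with anti-C5. Kidney 4 lay just above the lowest sham kidney, so the sham and isotype ranges overlapped. The change against sham was -0.85 (SE 0.30, edgeR adjusted p = 0.0272), a call that was lost with library totals as the scaling and without kidney 2, 3, 5 or 6, and had an adjusted p of up to 0.101 over the alternatives. Against isotype it was 0.99 higher with anti-G-CSFR (adjusted p = 0.0132, up to 0.0548 with kidney 5 or 6 left out) and 1.46 higher with anti-C5 (adjusted p = 0.00142).

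Rb1, the pocket protein that holds E2F factors inactive, measured 68.3, 66.4 and 58.0 CPM in sham, 38.0, 46.6 and 48.6 in the isotype group, 55.3, 55.5 and 52.5 with anti-G-CSFR and 49.8, 51.7 and 49.9 with anti-C5. The isotype kidneys were the lowest and the sham kidneys the highest. Rb1 fell by 0.53 on the log2 scale against sham (edgeR adjusted p = 0.000817) and was 0.29 higher with anti-G-CSFR than with isotype (adjusted p = 0.0249). The second call was lost with library totals as the scaling, with only the 6 compared libraries and without kidney 4, 7 or 8, with an adjusted p of up to 0.540 over the alternatives. Rcbtb2, whose exons overlap those of Rb1 on the other strand, changed by -0.62 and 0.71 in these comparisons, and its part in the Rb1 counts was not tested.

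The 6 S phase genes that fell after IRI were Tyms and Tk1 of nucleotide supply, Gmnn, and the fork genes Rfc2, Rfc5 and Rpa1. Tyms, thymidylate synthase, measured 30.0, 31.5 and 28.0 CPM in sham, 21.4, 9.95 and 11.3 in the isotype group, 33.7, 28.7 and 25.7 with anti-G-CSFR and 27.6, 34.9 and 37.4 with anti-C5. The 3 isotype kidneys were below the other 9, kidneys 5 and 6 more so than kidney 4. The log2 change was -1.07 against sham (SE 0.24, edgeR adjusted p = 0.0022), and Tyms was higher than isotype by 1.04 with anti-G-CSFR (adjusted p = 0.00258) and by 1.23 with anti-C5 (adjusted p = 0.00107).

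Tk1, the thymidine kinase of the salvage route, had the largest fall of the 50 members. It measured 12.3, 16.4 and 14.2 CPM in sham, 8.00, 2.27 and 2.87 in the isotype group, 16.9, 25.0 and 12.2 with anti-G-CSFR and 17.3, 35.7 and 28.4 with anti-C5. Sham and isotype did not overlap, and the log2 changes were -1.69 (SE 0.43, edgeR adjusted p = 0.00475), 2.02 (adjusted p = 0.00157) and 2.61 (adjusted p = 0.000358) in the comparisons of isotype with sham, anti-G-CSFR with isotype and anti-C5 with isotype. Exons of Tk1 overlap those of Afmid on the opposite strand, which averaged 82.9 CPM in sham and 14.0 in the isotype group and changed by -2.57, 2.49 and 2.47. How far Afmid reads enter the Tk1 counts was not tested. The ribonucleotide reductase subunits Rrm1 (21.7 to 45.9 CPM) and Rrm2 (11.2 to 44.99 CPM) were not called in any comparison, except Rrm1 between anti-C5 and isotype without kidney 12 (edgeR adjusted p = 0.0291).

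Gmnn, geminin, which blocks a new round of helicase loading, measured 15.4, 16.1 and 15 CPM in sham, 10.8, 9.03 and 8.28 in the isotype group, 19.8, 21.9 and 15.9 with anti-G-CSFR and 17.1, 28.6 and 23.4 with anti-C5. Its lowest 3 kidneys were the isotype kidneys. The log2 changes were -0.72 (edgeR adjusted p = 0.00498), 1.03 (adjusted p = 0.000531) and 1.29 (adjusted p = 0.000146). The 6 MCM genes behaved otherwise: 0 of 6 passed the edgeR test between isotype and sham, 0 had an unadjusted p below 0.05 and 0 were called by DESeq2 or limma-voom, with changes from -0.10 for Mcm7 to 0.50 for Mcm4. Among all 13124 genes 8737 had an unadjusted edgeR p below 0.05 in this comparison. Mcm4 was called with only the 6 compared libraries, without kidney 11 and without kidneys 9 and 11 (edgeR adjusted p down to 0.0205).

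For Mcm2 and Mcm5, both helicase subunits, 2 kidneys stood out. Mcm2 measured 26.1, 28.6 and 24.7 CPM in sham, 40.3, 25.3 and 24.1 in the isotype group, 23.8, 24.5 and 25.1 with anti-G-CSFR and 24.6, 58.0 and 23.4 with anti-C5. Mcm5 measured 15.5, 20.7 and 17.1 CPM in sham, 30.3, 14.6 and 15.2 in the isotype group, 16.8, 20.1 and 22.8 with anti-G-CSFR and 19.9, 61.8 and 20.8 with anti-C5. In both genes kidney 4 and kidney 11 were high and the other 10 kidneys lay close together. The changes between isotype and sham were 0.18 for Mcm2 (SE 0.30, edgeR adjusted p = 0.628) and 0.18 for Mcm5 (SE 0.41, adjusted p = 0.719).

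At the replication fork, subunits of one complex differed in direction. Of the 5 subunits of the clamp loader RFC, Rfc2 and Rfc5 fell and Rfc3 rose between isotype and sham. Rfc2 measured 36.3, 42.0 and 37.1 CPM in sham and 33.1, 24.9 and 23.7 in the isotype group, with no overlap and a log2 change of -0.50 (edgeR adjusted p = 0.00435). Rfc5 measured 14.8, 16.9 and 15.5 CPM in sham and 13.8, 11.1 and 10.7 in the isotype group, a change of -0.40 (edgeR adjusted p = 0.0335). Rfc3 measured 6.70, 10.4 and 6.37 CPM in sham and 14.1, 13.2 and 12.0 in the isotype group, a change of 0.74 (edgeR adjusted p = 0.0392). The 3 isotype kidneys lay on 1 side of sham in each of these genes, yet the call of Rfc5 was lost with library totals as the scaling and without kidney 2, 3, 5 or 6 (adjusted p up to 0.262 over the alternatives) and that of Rfc3 without kidney 1, 3, 4, 5, 6, 8 or 9 (up to 0.131).

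Rpa1, the large subunit of the protein that coats single-stranded DNA, fell from 65.7, 69.1 and 63.3 CPM to 53.0, 47.1 and 47.3, by 0.43 on the log2 scale (edgeR adjusted p = 0.00219). With library totals as the scaling its call was lost (adjusted p = 0.0904), as was that of Rfc2 (adjusted p = 0.0585). Fen1, the nuclease that trims Okazaki fragments, rose from 8.91, 9.34 and 7.81 CPM to 15.6, 16.2 and 14.7, by 0.83 (edgeR adjusted p = 0.0107). Pold1, the catalytic subunit of polymerase delta, rose from 7.10, 8.37 and 7.81 CPM to 15.4, 10.9 and 9.94, by 0.64 (edgeR adjusted p = 0.0448). Pold1 was near the threshold, and its call was lost without kidney 1, 2, 3, 4, 5, 7, 8 or 9 (adjusted p up to 0.172). Pcna, the sliding clamp, measured 44.8, 52.4 and 50 CPM in sham and 74.3, 58.6 and 61.2 in the isotype group. These ranges did not overlap, and the change of 0.40 had an edgeR adjusted p of 0.0767, or 0.0196 without kidney 11, which enters this comparison through the shared estimate of the spread.

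Another 7 fork and helicase genes, Rfc1, Pold2, Pole, Rpa2, Lig1, Mcm4 and Mcm7, did not pass in any of the 3 comparisons with the isotype group when all 12 libraries were fitted with TMM factors. Over the 12 kidneys, Rfc1, the largest clamp loader subunit, ranged from 32.9 to 48 CPM, Pold2, the second subunit of polymerase delta, from 12.7 to 20.7 and Pole, the leading-strand polymerase, from 2.48 to 14.8. The single-strand binding subunit Rpa2 ranged from 10.9 to 28.9 CPM and the ligase Lig1 from 8.85 to 23.4. Mcm4 ranged from 14 to 48 CPM and Mcm7 from 19.5 to 57. In all of these genes kidney 11 was the highest.

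Without kidney 11, 13 of 50 members were called higher and 10 lower between isotype and sham, against 4294 and 4081 of all 13124 genes. The 5 added were Lig1, Mcm4, Pcna, Rpa2 and Uhrf1, all of S phase, which brought the S phase genes to 8 higher and 6 lower. With only the 6 compared libraries 12 members were called higher and 10 lower, with Lig1, Mcm4, Pcna and Rpa2 added. Among all genes 4117 were then called higher and 3994 lower.

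Of the 9 measured M phase genes, edgeR called 0 between isotype and sham, with 1 at an unadjusted p below 0.05. Among all 13124 genes 8737 were below 0.05 unadjusted. DESeq2 called Ccnb1 and limma-voom called Cdk1. Mki67, the proliferation marker, measured 5.70, 12.7 and 5.82 CPM in sham, 5.55, 8.85 and 8.28 in the isotype group, 7.00, 7.09 and 4.77 with anti-G-CSFR and 10.2, 15.5 and 5.72 with anti-C5. Top2a, the topoisomerase that untangles chromosomes, measured 4.02, 12.1 and 5.00 CPM in sham, 5.55, 7.50 and 7.13 in the isotype group, 4.36, 7.46 and 4.92 with anti-G-CSFR and 8.39, 17.6 and 6.49 with anti-C5. In both genes kidney 2 was the highest sham kidney and lay above all isotype kidneys. The changes against sham were -0.10 for Mki67 (SE 0.38, edgeR adjusted p = 0.838) and -0.07 for Top2a (SE 0.43, adjusted p = 0.894).

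Cdk1, the mitotic kinase, measured 2.35, 6.94 and 2.94 CPM in sham, 6.00, 7.00 and 8.98 in the isotype group, 5.22, 5.67 and 3.03 with anti-G-CSFR and 6.42, 11.2 and 5.41 with anti-C5. Only kidney 2 of the sham group overlapped the isotype range. The change of 0.84 did not pass (SE 0.40, edgeR adjusted p = 0.0871), and the adjusted p ran from 0.00707 to 0.267 over the alternatives. Ccnb1, the cyclin of Cdk1 in mitosis, measured 0.804, 1.82 and 1.10 CPM in sham, 1.22, 4.67 and 3.25 in the isotype group, 0.793, 1.72 and 0.529 with anti-G-CSFR and 1.48, 2.02 and 0.696 with anti-C5. Its change against sham was 1.28 (SE 0.54, edgeR adjusted p = 0.0569), and 1.67 (adjusted p = 0.0103) without kidney 4, the lowest of the isotype kidneys. Ccna2, the cyclin of S phase and G2, ranged from 2.41 to 8.53 CPM over the 12 kidneys, and Birc5, survivin, from 1.36 to 5.57. Cdc20, the activator of the anaphase complex, ranged from 1.44 to 4.67 CPM and Aurka, a spindle pole kinase, from 0.727 to 3.26. The other M phase genes, Ccna2, Birc5, Cdc20, Cdca3 and Aurka, had adjusted p-values of 0.101 or more in this comparison.

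**Figure D3:**
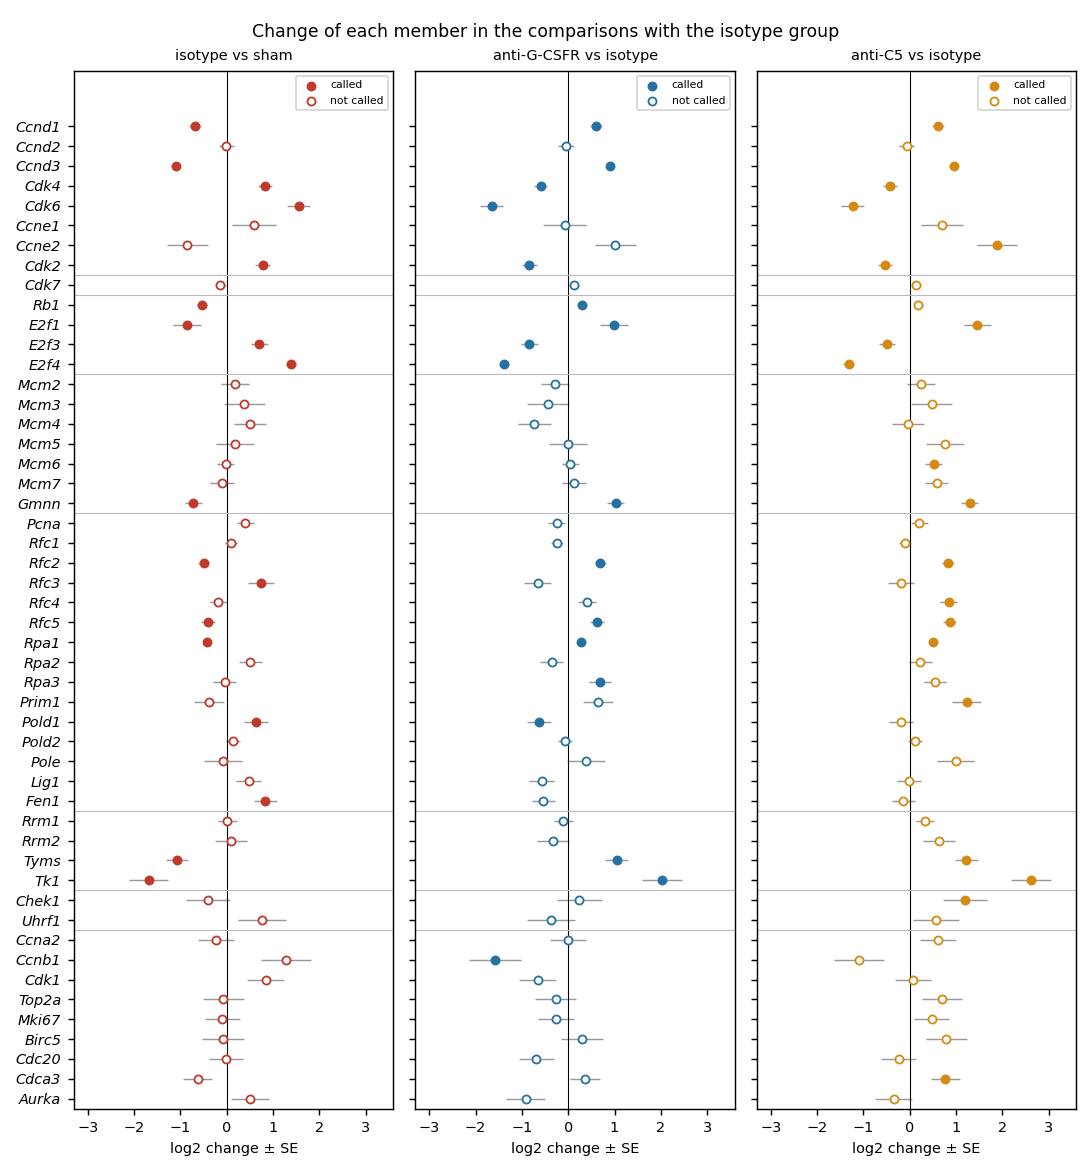
Log2 change ± SE of each of the 50 members (rows, by role) in the 3 comparisons that involve the isotype group, with filled points for called members. Cdk4, Cdk6, Cdk2, E2f3 and E2f4 lie right of 0 in the comparison with sham and left of 0 in the other 2. Those 2 share the isotype kidneys with it.

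With anti-G-CSFR, 11 of 50 members were higher than with isotype and 7 lower, against 31.5% and 32.0% of all genes, both shares below the background. The members called higher were Ccnd1, Ccnd3, Rb1, E2f1, Gmnn, Rfc2, Rfc5, Rpa1, Rpa3, Tyms and Tk1, and those called lower were Cdk4, Cdk6, Cdk2, E2f3, E2f4, Pold1 and Ccnb1. The median log2 change was -0.07 over the members and -0.02 over all genes. This comparison shares the 3 isotype kidneys with that of isotype and sham, so the values of both are set side by side here with no count of their likeness. With library totals as the scaling the members' calls were 8 higher and 13 lower, and those of all genes 3107 and 5554. Without kidney 11 the members' calls were 12 higher and 12 lower, with Ccne2, Fen1, Lig1, Mcm4, Rfc3 and Rpa2 added, and those of all genes 4188 and 4295.

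Some anti-G-CSFR calls changed with single kidneys or with the processing. Rpa3, the small subunit of the same single-strand binding protein, measured 14.6, 14.8 and 9.15 CPM with anti-G-CSFR and 10.6, 6.14 and 7.33 with isotype, so the ranges overlapped. The change was 0.68 (SE 0.24, edgeR adjusted p = 0.0261), and the call was lost with library totals as the scaling, with only the 6 compared libraries and without kidney 5, 6, 7 or 8 (adjusted p up to 0.101). Ccnb1 fell by 1.58 on the log2 scale (SE 0.56, edgeR adjusted p = 0.0277) and was not called by limma-voom or with kidney 5, 6, 7 or 9 left out (up to 0.128). Pold1 changed by -0.63 (edgeR adjusted p = 0.048) and was no longer called with any of kidneys 1 to 5 or 7 to 9 left out or with the filter of 5 CPM (up to 0.182). Rpa1, at 62.5, 62.5 and 54.8 CPM, was 0.29 higher (edgeR adjusted p = 0.0203) and was not called with library totals as the scaling or with kidney 5, 6, 7 or 8 left out (up to 0.574 over the alternatives).

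With anti-C5, 15 members were higher than with isotype and 5 lower, against 30.5% and 29.8% of all genes, the first share near the background and the second below it. The 5 lower were Cdk4, Cdk6, Cdk2, E2f3 and E2f4. The 15 higher were Ccnd1, Ccnd3, Ccne2, E2f1, Mcm6, Gmnn, Rfc2, Rfc4, Rfc5, Rpa1, Prim1, Tyms, Tk1, Chek1 and Cdca3, of which 10 are S phase genes. The median log2 change was 0.49 over the members and -0.01 over all genes. Without kidney 11 the members' median was 0.05, and 12 members were called higher and 10 lower, against 4051 and 4081 of all genes. Chek1, Mcm6 and Cdca3 were then no longer called, while Fen1, Lig1, Mcm4, Pold1 and Rfc3 were called lower, so the S phase genes went from 10 higher and 0 lower to 8 higher and 5 lower. With library totals as the scaling the calls were 12 higher and 5 lower among the members and 3106 and 5111 among all genes.

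The calls lost without kidney 11 were each lost without some other kidneys too. Mcm6, a helicase subunit, measured 55.5, 48.5 and 48.8 CPM with isotype and 60.2, 102 and 56.3 with anti-C5. Its change of 0.52 (SE 0.19, edgeR adjusted p = 0.0305) became 0.19 (adjusted p = 0.132) without kidney 11, and the call was also lost without kidney 5 or 6. Chek1, the checkpoint kinase, measured 5.11, 1.60 and 2.102 CPM with isotype and 4.23, 12.2 and 3.94 with anti-C5, with overlapping ranges. Its change of 1.19 (edgeR adjusted p = 0.0446) became 0.46 (adjusted p = 0.327), and the call was also lost without any one of kidneys 1, 2, 3, 5, 6, 7, 8 and 9. Cdca3, at 1.5, 2.21 and 2.17 CPM with isotype and 3.10, 3.98 and 2.94 with anti-C5, changed by 0.77 (edgeR adjusted p = 0.0499), and by 0.63 (adjusted p = 0.134) without kidney 11, with the call also lost without any one of kidneys 3 to 7, 10 and 12. The calls of Mcm6, Chek1 and Cdca3 were also lost with library totals as the scaling and with only the 6 compared libraries. Of the kinases and E2f3, the calls of Cdk4, Cdk2 and E2f3 were lost without kidney 10 or 12, that of Cdk4 also without kidney 4 and that of E2f3 also without kidney 5 or 6. Those of Cdk4 and E2f3 were also lost with only the 6 compared libraries, and for Cdk4, Cdk2 and E2f3 the adjusted p ran up to 0.0981, 0.0524 and 0.128 over the alternatives.

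Other anti-C5 calls held under all 20 alternatives. Prim1, the catalytic subunit of primase, measured 12.6, 5.16 and 6.18 CPM with isotype and 13.3, 25.1 and 17.9 with anti-C5, a change of 1.23 (SE 0.32, edgeR adjusted p = 0.00615), or 0.96 without kidney 11. Rfc4 measured 9.22, 7.19 and 6.498 CPM with isotype and 11.4, 16.3 and 13.4 with anti-C5, a change of 0.84 (edgeR adjusted p = 0.00253). Both genes had every anti-C5 kidney above every isotype kidney. Exons of Rfc4 overlap those of Eif4a2 on the opposite strand, which averaged 210.0 CPM with isotype and 401.5 with anti-C5, and its part in the Rfc4 counts was not tested.

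Neither antibody group differed from sham, nor from the other antibody group, in any member that passed the test. In the comparison of anti-G-CSFR with sham 0 members were called higher (0.0% of all genes) and 0 lower (0.0%), and 2 had an unadjusted p below 0.05: Rpa3, 0.63 higher, and Rb1, at -0.24. In that of anti-C5 with sham 0 were called higher (0.0%) and 0 lower (0.0%), and 18 had an unadjusted p below 0.05, of which 17 were higher. Between anti-G-CSFR and anti-C5 0 were called higher (0.0%) and 0 lower (0.0%), with 7 at an unadjusted p below 0.05, all lower with anti-G-CSFR. Among all 13124 genes 778, 1487 and 207 had an unadjusted edgeR p below 0.05 in these comparisons, in the same order. DESeq2 and limma-voom also called 0 members in each of these 3 comparisons. Over all genes limma-voom called 0 in each. DESeq2 called 70 genes higher and 42 lower between anti-C5 and sham. It called 1 higher and 0 lower between anti-G-CSFR and sham, and 0 and 2 between the antibody groups. With only the 6 compared libraries edgeR called 41 genes higher and 2 lower between anti-G-CSFR and sham, 0 of them members. A missed threshold does not show that the groups were alike. The median log2 change against sham was -0.01 with anti-G-CSFR and 0.46 with anti-C5, and without kidney 11 the second was 0.07. Between the antibody groups it was -0.46, and -0.08 without kidney 11.

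Kidney 11 carried the highest level of most replication genes in the study. It was the highest of all 12 kidneys in 34 of 50 members (68.0%), against 3.94% of all 13124 genes, a count made after its values had been seen. Of the 28 S phase genes it was the highest in 26, the others being Tyms, highest in kidney 12, and Rpa3, highest in kidney 8. It was also the highest in 5 of 9 M phase genes and 2 of 5 G1 cyclins. Of the 8 kinases, Cdk7, Rb1 and E2F genes it was the highest of the 12 kidneys in 1. Among the anti-C5 kidneys it was the highest in 7 of these 8, against 38.2% of all genes. The mean log2 level of these 8 genes above the sham mean was 0.49 in kidney 11 and -0.003 and -0.007 in kidneys 10 and 12. In the isotype kidneys 4, 5 and 6 it was 0.57, 0.38 and 0.41. The mean log2 level of the S phase genes above the sham mean was 1.07 in kidney 11, against 0.18 and 0.23 in kidneys 10 and 12. Uhrf1, which guides maintenance methylation behind the fork, was at 47.1 CPM in kidney 11 and at 12.1 and 11.0 in kidneys 10 and 12. Mcm3 was at 45.1 CPM there and at 14.3 and 11.3 in the other anti-C5 kidneys.

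Markers of some other cell types also stood apart in kidney 11. Its summed neutrophil markers (8 of 15 measured) reached 122.5 CPM, against 8.25 and 13.6 in kidneys 10 and 12, 42.9 to 117.2 in the isotype group and 8.01 to 10.6 in sham. Its erythroid markers (4 of 6 measured, the haemoglobin genes) summed to 187.1 CPM, against 8.75 and 35.9 in kidneys 10 and 12. Monocyte and macrophage markers (10 of 11) were at 225.4 CPM there and between 124.3 and 232.5 over all kidneys. They did not all move together. Csf1r was lower in kidney 11 (38.6 CPM) than in kidneys 10 and 12 (60.9 and 46.7), and Mrc1 lay between them (3.9 against 5.5 and 3.6). Each of the other measured markers of this list was highest in kidney 11 within the group, such as Lyz2 (69.9 against 32.9 and 37.1). In the isotype kidneys 4, 5 and 6 the neutrophil sums were 97.0, 42.9 and 117.2 CPM and the tubule injury sums 7352, 7260 and 7195 CPM. Their mean S phase levels were 0.32, -0.21 and -0.22. The part of these cells or of the injury in the replication genes was not tested.

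**Figure D4:**
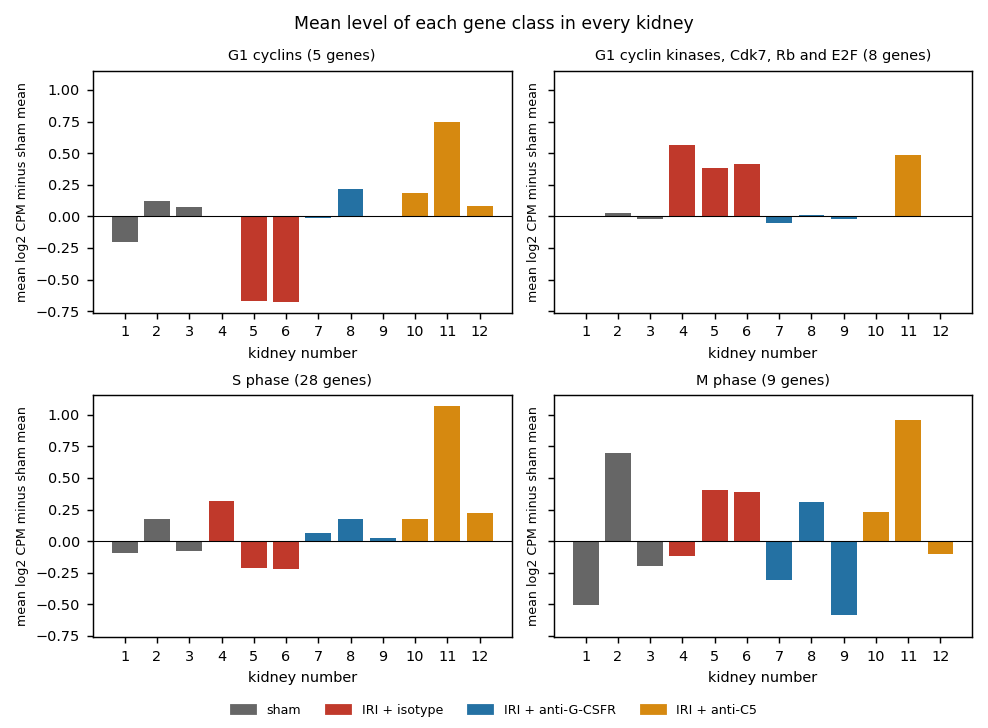
Mean log2 CPM of the genes of each class minus its sham mean, 1 bar per kidney, coloured by group. Kidney 11 has the highest bar for G1 cyclins (0.75), S phase (1.07) and M phase (0.96). The isotype kidneys and kidney 11 (0.49) are all high for the kinases and E2F class, and kidney 4 parts from kidneys 5 and 6 for G1 cyclins and S phase.

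Within the groups, S and M phase genes also ranked kidneys together. Kidney 2 was the highest sham kidney in 26 of 28 S phase genes and 9 of 9 M phase genes, against 33.8% of all genes. In the anti-G-CSFR group kidney 8 was the highest in 9 of 9 M phase genes and 15 of 28 S phase genes, against 26.5% of all genes. Kidneys 2 and 8 were picked for these counts after their values had been seen. Summed erythroid markers were 62.7 CPM in kidney 2 against 19.6 and 21.3 in the other sham kidneys, and 52.3 in kidney 8 against 16.9 and 16.6 in kidneys 7 and 9. Kidneys 10 and 12 of the anti-C5 group went the other way. Kidney 10 had an erythroid sum of 8.75 CPM and a mean M phase level of 0.23. Kidney 12 had 35.95 CPM and -0.10, and was the lowest anti-C5 kidney in 8 of 9 M phase genes, against 4583 of all 13124 genes. The part of red cell precursors in these M phase levels was not tested, and Alas2, a marker of such precursors, was not analysed here.

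The isotype group was divided in another way, with S and M phase genes apart. Kidney 4 was the highest isotype kidney in 26 of 28 S phase genes and in 5 of 5 G1 cyclins, and the lowest in 8 of 9 M phase genes. Among all 13124 genes it was the highest in 44.96% and the lowest in 5493. These counts, too, were made after its values had been seen. The mean M phase level was -0.12 in kidney 4 and 0.41 and 0.39 in kidneys 5 and 6, while the S phase levels were 0.32, -0.21 and -0.22. Erythroid markers summed to 7.11 CPM in kidney 4, 26.9 in kidney 5 and 43.9 in kidney 6. Lcn2, a tubule injury marker, was at 1018, 2849 and 2773 CPM, and Havcr1, another, at 5672, 3090 and 3032. These kidneys had the same labels, and the part of the markers in the difference was not tested. Without kidney 4, 7 members were called higher and 13 lower between isotype and sham, with Ccnb1 the 1 M phase gene called. Among all genes 4310 were then called higher and 4252 lower.

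Other genes of the same pathways were taken from lists of 115 genes, of which 98 were measured. Between isotype and sham 25 rose and 17 fell, with anti-G-CSFR against isotype 19 were higher and 26 lower, and with anti-C5 against isotype 23 were higher and 18 lower. Among all genes these shares were 32.1% and 30.7%, 31.5% and 32.0%, and 30.5% and 29.8%, so each count of the 98 was below the background. Of the 6 CDK inhibitors measured 1 rose, Cdkn1a, and 3 fell, Cdkn1b, Cdkn1c and Cdkn2c. Cdkn1a, the p53 target p21, measured 12.4, 8.56 and 10.7 CPM in sham, 120, 230.1 and 261 in the isotype group, 9.64, 9.10 and 14.7 with anti-G-CSFR and 10.4, 35.0 and 5.95 with anti-C5. The isotype kidneys were far above all others, and among these kidney 4 was the lowest. The log2 changes were 4.27 (SE 0.55, edgeR adjusted p = 5.46e-05), -4.20 and -3.57. Cdkn1b, p27, changed by -0.40 against sham (edgeR adjusted p = 0.00786).

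Among 19 measured genes of origin recognition and firing, 4 rose and 2 fell between isotype and sham. Both were below the 32.1% and 30.7% of all genes. Dbf4, the activator of the kinase Cdc7, rose from 3.55, 3.70 and 3.49 CPM to 8.11, 12.7 and 13.2, by 1.66 (edgeR adjusted p = 0.000282). Mcm10, which helps fire the helicase, fell from 6.501, 7.98 and 5.48 CPM to 3.11, 1.35 and 2.23, by 1.57 on the log2 scale (edgeR adjusted p = 0.000289). Among 20 other polymerase and fork genes 5 rose and 2 fell, also below these shares. Pold4, a small subunit of polymerase delta, rose by 2.31 (edgeR adjusted p = 7.73e-05).

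Among 15 other E2F, DP, pocket protein and MuvB genes, the list that also held Myc, 2 rose and 4 fell between isotype and sham. The shares of all genes were 32.1% higher and 30.7% lower, for this list and those that follow. Lin52 and Rbl2, parts of the complex that silences cell cycle genes in resting cells, changed by -1.05 and -0.83 (edgeR adjusted p = 3.5e-05 and 7e-05), and Myc, which drives cells into the cycle, rose by 3.56 (adjusted p = 8.85e-05). Among 30 other mitosis genes 10 rose, near that share, and 5 fell, below it. Spc25, a kinetochore protein, changed by -2.04 (edgeR adjusted p = 2.04e-05) and Pttg1, securin, by -1.06 (adjusted p = 0.000138). Among 8 other cyclins and kinases 3 rose and 1 fell: Cdk9, a kinase of transcription, changed by 0.65 (edgeR adjusted p = 0.00013), Mnat1, which assembles the Cdk7 kinase, by 0.62 (adjusted p = 0.000861) and Ccnf by 1.44 (adjusted p = 0.0219).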

How the data were processed

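RNA of 12 kidneys was sequenced as single-end reads from strand-specific libraries in 1 lane, per the labels' protocols. Reads were aligned with TopHat2 2.1.0 and Bowtie2 2.2.5 to GRCm38.p4 and counted with featureCounts, per the submitters' processing notes; no source used here gives the strand setting or annotation. The deposited values are raw counts of 13124 genes. The third-highest CPM of every gene was at least 2.01, so low genes had been removed before the authors deposited the table. Symbols came from the RefSeq table (13074 genes) and positions from GENCODE vM21.

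The test was that of edgeR 4.0.16 under R 4.3.3 (quasi-likelihood, TMM, robust, 12 libraries, 8 residual degrees of freedom), with Benjamini-Hochberg adjusted p below 0.05 over all genes. The edgeR filter removed 0 genes. The fit was also run on simulated counts in which few genes changed. That run cannot judge the scaling in these data, where many genes changed. CPM is scaled by TMM factors. Alternatives used RLE factors, library totals, no filter, at least 5 CPM in 3 libraries, DESeq2 1.42.0, limma-voom (limma 3.58.1), only the 6 libraries compared, each kidney left out, and kidneys 9 and 11 left out. Kidneys within a group differed by 5.48 to 65.3 chi-square per degree of freedom, so each was 1 replicate.

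Members and lists were chosen with earlier results of these data known. All members are described; values in every kidney are given for those called between isotype and sham and for fixed examples, and from the other lists the 2 called genes with the smallest p and the gene with the largest change, except a gene that is counted in its list and not reported here.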

Additional observations from a re-analysis of the deposited data

How the results depend on the processing

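Over 20 alternatives (19 for genes below 5 CPM), 12 of 18 calls between isotype and sham, 12 of 18 with anti-G-CSFR and 14 of 20 with anti-C5 were kept in all. No called change reversed; values that passed no test changed sign in 43, 22 and 36 of 993 member and setting pairs of these comparisons. Between isotype and sham, members called higher numbered 13 without kidneys 9 and 11 and 6 to 13 with one kidney left out. Members called lower numbered 6 with library totals. Over all genes these counts were 4256, 3638 to 4310 and 3095. With anti-G-CSFR against isotype, members called lower numbered 13 with library totals, 11 with the 6 libraries compared, 11 without kidneys 9 and 11 and 5 to 12 with one kidney left out. Over all genes these counts were 5554, 3946, 4104 and 3583 to 4327. With anti-C5 against isotype, members called lower numbered 3 with the 6 libraries compared, 10 without kidneys 9 and 11 and 2 to 10 with one kidney left out. Over all genes these counts were 3158, 4009 and 3156 to 4081. Fewer libraries entered each of these fits except that with library totals. The cause of the moved counts was not tested. No paired analysis was possible because no kidney number occurs in 2 groups. The lowest members, such as Ccnb1 with 7 counts in 1 kidney, have the least precise levels.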
